A study of Mus musculus with 12 samples.

Results

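The cytosolic ribosome is built from a small subunit, which reads the mRNA, and a large subunit, which joins the amino acids, and each holds ribosomal RNA and a set of proteins named Rps and Rpl. The genes of these proteins were described here in mouse retina: 80 genes, 31 of the small and 49 of the large subunit, of 21408 genes in the deposited table. They were chosen by a rule on their symbols, with earlier results of these data known. Pseudogenes, the S6 kinases and 3 genes with near-identical copies (Rpl3, Rps3a1 and Rps3a3) were left out. Their mRNAs are known to be abundant, to be made in step with one another and to share a pyrimidine tract at the 5′ end, the terminal oligopyrimidine tract, through which mTORC1 signalling sets their translation. In the retina at the ages studied the neurons and photoreceptors have stopped dividing, whereas microglia and the cells of the vessel wall remodel while the vascular bed is growing or damaged.

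The study sequenced single cells of C57B6 retina by Drop-seq, a droplet method that counts the 3′ ends of mRNA molecules with unique molecular identifiers (UMIs). NORM pups stayed in room air with their own mother. OIR pups (oxygen-induced retinopathy) breathed 75% O2 from day 7 to day 12 and then returned to room air with a foster mother, so that fostering and oxygen cannot be told apart. Retinas were taken at postnatal day 14 (P14) or 17 (P17), either whole or after rod depletion. The 12 libraries were 1 NORM library for each day and fraction, 5 OIR libraries of P14 (2 rod-depleted, 3 whole) and 3 of P17 (1 rod-depleted, 2 whole). Whether libraries of a group stem from different animals is not stated in the labels, and the p-values below therefore describe variation among libraries, which may be technical.

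The median cell held 432 UMIs in the P17 NORM whole-retina library and 1794.5 in the second P17 OIR whole-retina library. Every cell was therefore thinned to 300 UMIs before levels were compared, and levels are given as UMIs per 10000. Counts of 3′ ends do not scale with gene length, so levels of different genes could be set side by side without a length correction. The P14 NORM whole-retina library stood apart: Rpl3, left out of the members, was at 0.0569 per 10000 there against 2.12 to 6.27 elsewhere, Rps3a1 was at 0.114 against 1.96 to 6.44, and Rps3a3, a near-identical copy of Rps3a1, was at 4.28 against 0.0782 to 0.702. Scrublet marked 0.431% to 1.907% of cells per library as doublets, which stayed in the data, and 14 of 25458 barcodes occurred in more than 1 library.

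Mouse genes whose mRNAs begin with a C followed by pyrimidines at the annotated start are shown first, because the tract is the feature that these mRNAs are known for. Of the members, 61 had an entry in the RefSeq promoter table of GRCm38.p6. The sequences below run from 30 bases before to 20 bases from the annotated start, 5′ to 3′ on the gene's strand. Capitals mark the tract, a C at the start and the unbroken C or T bases after it.
Rps15a: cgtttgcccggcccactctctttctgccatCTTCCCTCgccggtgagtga
Rpl38: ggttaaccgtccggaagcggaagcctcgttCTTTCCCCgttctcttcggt
Rps18: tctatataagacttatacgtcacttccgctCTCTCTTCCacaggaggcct
Rpl35a: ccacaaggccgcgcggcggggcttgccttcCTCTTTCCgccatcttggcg
Rps10: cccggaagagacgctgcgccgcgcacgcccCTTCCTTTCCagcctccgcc
Rplp2: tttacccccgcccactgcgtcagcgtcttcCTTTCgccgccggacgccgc
Rps6: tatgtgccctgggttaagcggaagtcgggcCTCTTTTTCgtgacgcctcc
Rpl15: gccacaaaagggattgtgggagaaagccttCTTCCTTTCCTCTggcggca
Rpl4: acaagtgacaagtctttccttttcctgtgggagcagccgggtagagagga
Rplp0: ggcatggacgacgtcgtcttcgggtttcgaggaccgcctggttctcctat
These 10 were picked because the results below turn on them, after their values were seen. Rps15a lies at chr7:118116128-118116177 on the minus strand, Rpl38 at chr11:114668550-114668599 on the plus strand and Rps18 at chr17:33955646-33955695 on the minus strand. Rpl35a lies at chr16:33056452-33056501 on the plus strand, at 1 of its 3 annotated starts, and Rps10 at chr17:27635225-27635274 on the minus strand. Rplp2 lies at chr7:141447621-141447670 on the plus strand, Rps6 at chr4:86857348-86857397 and Rpl15 at chr14:18270967-18271016, both on the minus strand. Rpl4 at chr9:64173357-64173406 and Rplp0 at chr5:115559437-115559486, both on the plus strand, have no C at the annotated start, and Rpl4 carries its pyrimidines a few bases upstream of it.

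A C at an annotated start followed by at least 4 C or T bases was found on the gene's strand in 13 of the 61 members, or 21.3%, against 3.0% of the 13660 genes of the table with a promoter entry. A run of at least 8 C or T bases within 15 bases of a start was present in 26 members, or 42.6%, against 14.7% of those genes. Such a match is a description of these letters and depends on where the annotation places the start.

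Ribosomal protein mRNAs took very different shares of the RNA in different cells. Cells were clustered without any ribosomal protein gene, so that the members did not define the classes, and clusters were named from markers such as C1qa and Cx3cr1 for microglia. In microglia-like cells the members made up 7.23% ± 1.47 of UMIs (SD, n = 7 libraries), in endothelial-like cells 7.03% ± 2.1 (n = 4) and in pericyte-like cells 6.07% ± 2.3 (n = 5). Astrocyte-like cells followed with 3.45% ± 0.758 (n = 3). The neuronal and Müller-like classes lay lower: cone-bipolar-like 2.41% ± 0.694 (n = 12), rod-bipolar-like 2.14% ± 0.758 (n = 12), Müller-like 2.13% ± 0.627 (n = 12), rod-like 1.87% ± 0.666 (n = 8), cone-like 1.66% ± 0.454 (n = 12), horizontal-like 1.62% ± 0.419 (n = 6), amacrine-like 1.6% ± 0.444 (n = 12) and ganglion-like 1.2% ± 0.583 (n = 8). Without thinning the microglia-like share was 7.4% ± 1.34 and the ganglion-like share 1.2% ± 0.561.

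**Figure D1:**
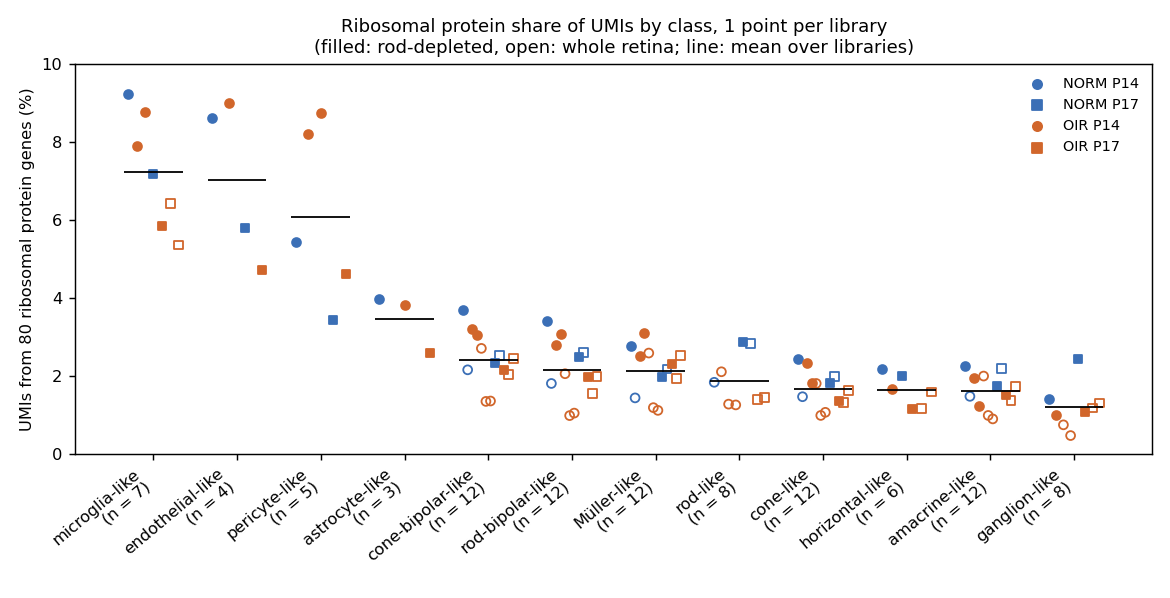
Percent of UMIs from the 80 ribosomal protein genes (vertical axis) in 12 cell classes (horizontal axis), with 1 point per library holding at least 20 cells of the class, marked by oxygen group and day, and a bar at the mean. Every microglia-like library lies between 5.35% and 9.23%, above every rod-bipolar-like library, which lie between 0.976% and 3.41%.

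Within a library, where depth and preparation are shared, the order of the classes was steadier than across libraries. The microglia-like share exceeded the rod-bipolar-like share in 7 of 7 libraries, by 2.71 to 4.16 times, and the Müller-like share in 7 of 7, by 2.13 to 3.63 times. Pericyte-like exceeded rod-bipolar-like cells in 5 of 5 libraries and endothelial-like exceeded them in 4 of 4. The 3 highest classes did not separate from one another: microglia-like was above pericyte-like in 4 of 5 libraries and above endothelial-like in 3 of 4. Cone-bipolar-like cells were above cone-like and amacrine-like cells in 12 of 12 libraries. Rod-bipolar-like and Müller-like cells did not separate, with the first higher in 5 of 12 libraries.

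The ratio of large-subunit to small-subunit UMIs varied much less than the share. Its mean was 1.17 ± 0.072 (SD, n = 7) in microglia-like cells, 1.18 ± 0.0496 (n = 12) in rod-bipolar-like cells and 1.21 ± 0.0669 (n = 12) in cone-bipolar-like cells. Amacrine-like cells had 1.38 ± 0.138 (n = 12) and Müller-like cells 1.3 ± 0.119 (n = 12). The classes thus differed in the level of both subunits together.

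Across the 11 classes with at least 4 libraries, the members with a mean of at least 2 per 10000 followed one another. Of 45 such genes, 40 had a Pearson r above 0.9 between their class means and the mean of the members, on the log2 scale over 11 classes, with a median of 0.96. Among the others were Rpl7 at 0.82, Rpl36al and Rpl38 at 0.86 each and Rpsa at 0.88. The points share libraries and depth, and each gene is part of the mean. The spread of class means was taken as log2 of highest over lowest after adding 0.2 per 10000 to each, which narrows it for members with low means. On that scale it was widest for Rps15a (4.12), and Rpl38 (3.96), Rpl7 (3.92) and Rps19 (3.63) were also among the widest. The narrowest belonged to Rpl8 and Rpl29 (1.85 each) and Rpl4 (1.95).

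**Figure D2:**
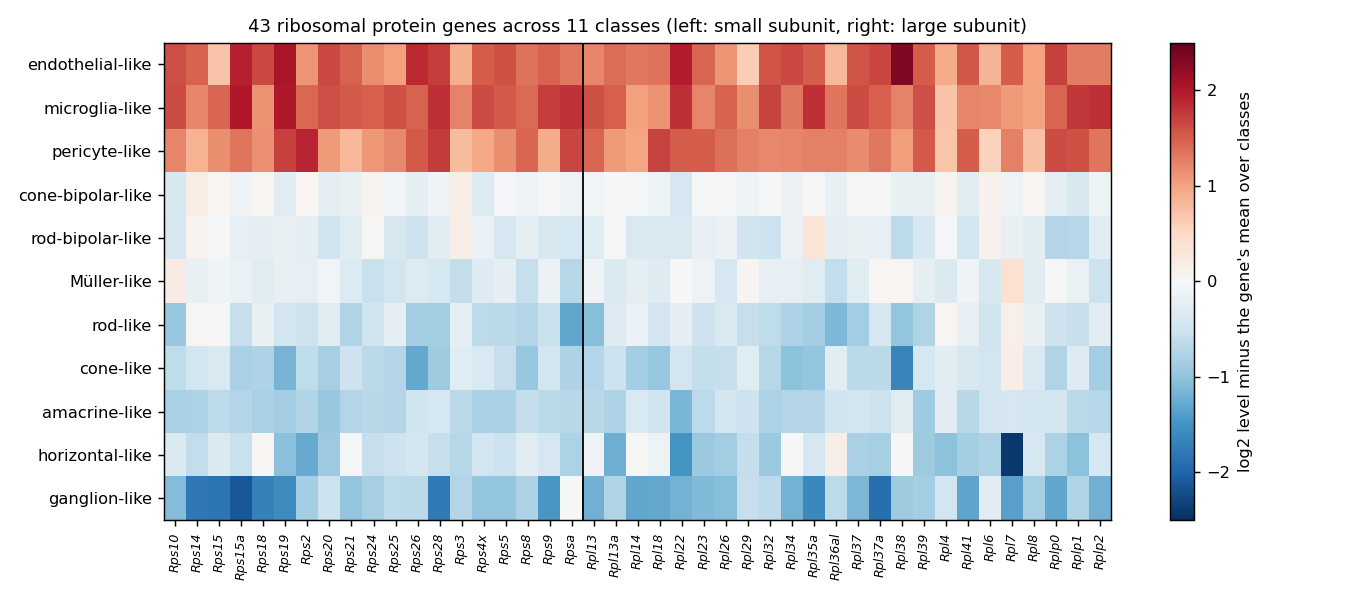
Log2 level of 43 ribosomal protein genes (horizontal axis, small subunit on the left, large on the right) in 11 classes (vertical axis), minus the gene's own mean over classes, as colour. The endothelial-like, microglia-like and pericyte-like rows lie above the mean for all 43 genes drawn. With 0.2 per 10000 added before the log2, Rps15a spans the widest range, from 0.929 per 10000 in ganglion-like to 19.5 in microglia-like cells.

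By level, the family spans more than the classes do. The highest means over the 11 classes were those of Rplp1, a protein of the stalk that recruits elongation factors (14.2 per 10000), Rps14 of the mRNA platform (13.8), Rpl13a (12.6), Rpl41, the smallest ribosomal protein (12.0), and Rps24 (10.7). The lowest were Rpl10l (0.00663), Rpl39l (0.0153) and Rpl24 (0.0201). In all, 26 of the 80 members had a mean below 1 per 10000.

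A low count need not be a low mRNA level, since short 3′ reads of a gene with a near-identical copy elsewhere can be discarded as ambiguous. Whether such reads were lost here was not tested. Within the last 300 bases of their transcripts, 56 of the 80 members shared at least 1 window of 50 bases with another place in the genome, against 8.07% of all genes, and 40 shared at least 50% of their windows, against 2.85%. The median level was 2.13 per 10000 for these 40 and 2.42 for the 24 with no shared window, and Spearman's rank correlation between shared percentage and level was -0.25 over the 80 members. Rps6, the substrate of S6 kinase, had 83.3% of its windows shared and a mean level of 0.0546, with 8 UMIs of 1713900 in the thinned rod-bipolar-like cells of all 12 libraries. Levels of Rpl10 (0.135) and Rpl36a (0.184), with every window shared, and of the ubiquitin fusion Rps27a (0.241, 86.9% shared) are uncertain in the same way, although Rps2 (78.1% shared) and Rplp1 (66.9% shared) were well detected.

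The class differences were tested gene by gene with limma, on the log2 difference from rod-bipolar-like cells within each library, with Benjamini-Hochberg adjustment over all genes tested and a threshold of 0.05. Of 66 members tested in microglia-like cells, 44 were higher and 0 lower, and 51 had an unadjusted p below 0.05 upward and 1 downward. Among all 3933 genes tested, 6.08% were called higher and 17.4% lower. The median log2 difference of the members was 1.31, against -0.61 for all genes. By subunit, 21 of 27 small-subunit members and 23 of 39 large-subunit members were higher.

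Among small-subunit proteins in microglia-like cells, Rps19 and Rps15a were among the members with the largest differences from rod-bipolar-like cells. Rps19, known for its mutation in Diamond-Blackfan anaemia, was at 24.8, 20.5 and 26.8 per 10000 in the P14 microglia-like libraries (NORM, then OIR) and at 31.9, 22.3, 14.3 and 18.8 at P17 (NORM, then OIR). In rod-bipolar-like cells of the 12 libraries Rps19 ranged from 2.61 to 8.03, so the classes did not overlap. The log2 difference was 2.09 ± 0.33 for Rps19 and 2.02 ± 0.34 for Rps15a (SE, adjusted p = 7.9e-06 and 2e-05, limma).

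The stalk proteins Rplp0, Rplp1 and Rplp2 moved together in microglia-like cells. Rplp1 was at 46.8, 38.5 and 54.0 per 10000 in the P14 libraries (NORM, then OIR) and at 43.5 in P17 NORM, and at 21.1, 31.7 and 27.5 in the P17 OIR libraries. In rod-bipolar-like cells it ranged from 2.71 to 12.1, below every microglia-like library. Rplp0, the base of the stalk, was at 10.1 to 18.1 against 1.28 to 4.94, and Rplp2 at 12.7 to 29.1 against 1.92 to 6.44. The log2 differences were 2.17 ± 0.32 for Rplp1, 2.05 ± 0.33 for Rplp0 and 2.0 ± 0.33 for Rplp2 (SE, adjusted p = 3.1e-06, 1.4e-05 and 1.9e-05, limma).

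A few members did not share the difference in microglia-like cells. Rpl5 and Rpl11 carry the 5S ribosomal RNA into the large subunit and bind Mdm2 when assembly fails. Rpl5 had a log2 difference of -0.83 ± 0.52 (adjusted p = 0.25, limma) and Rpl11 one of 0.6 ± 0.43 (adjusted p = 0.32). Negative differences short of the threshold were also measured for Rps7 (-0.53) and for Rpl15 (-1.08), Rps13 (-0.83) and Rps29 (-0.29), of which the last 3 were named after their values were seen. In endothelial-like cells Rpl5 was at 0 of 60600 thinned UMIs in 4 libraries, which allows up to 0.495 per 10000. Before thinning it had 18 of 536547 UMIs there, or 0.335 per 10000, against 0.319 to 1.27 in thinned rod-bipolar-like cells, and this class was not part of the test.

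**Figure D3:**
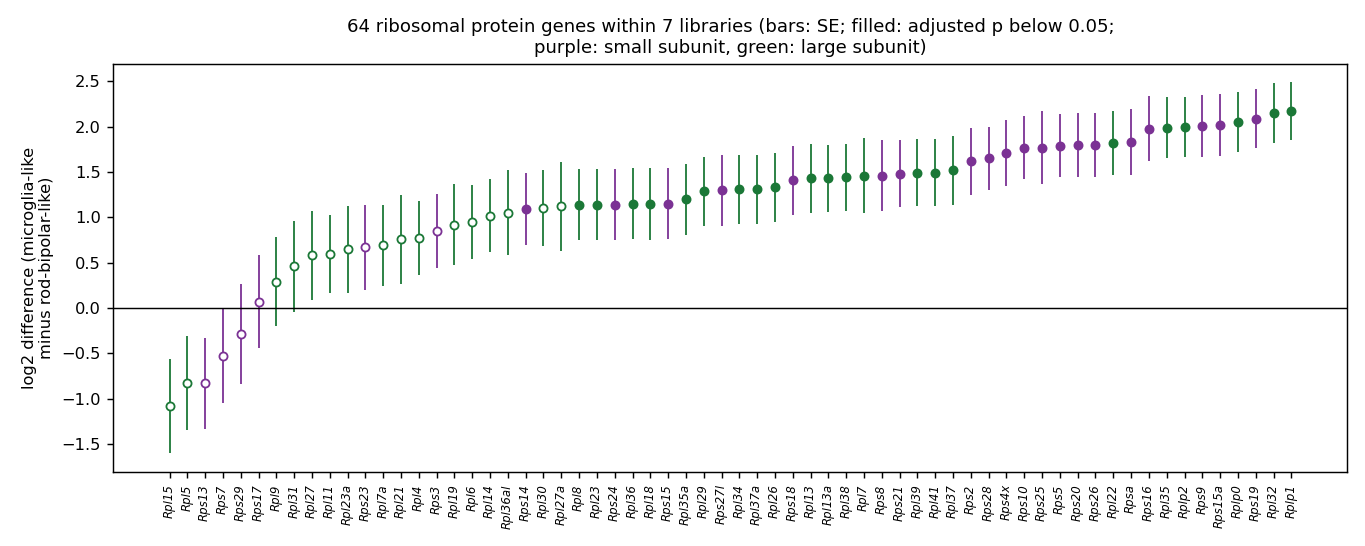
Log2 difference of 64 ribosomal protein genes (horizontal axis, ordered by value) between microglia-like and rod-bipolar-like cells of the same library, over 7 libraries, with SE bars and filled points where the adjusted p is below 0.05. The 42 filled points all lie above 0, and the 5 genes below 0, from Rpl15 at -1.08 to Rps29 at -0.29, are open.

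Genes of related function did not all behave like the cytosolic family in that contrast. Of 54 mitochondrial ribosomal proteins tested, 1 was higher and 6 lower in microglia-like cells, with a median of -0.86. Of 20 other mRNAs known for an oligopyrimidine tract, 7 were higher and 0 lower, with a median of 0.34, among them Eef1b2 (2.02 ± 0.33), Fau (1.77 ± 0.36), Gnb2l1 (1.57 ± 0.37) and Pabpc1 (1.54 ± 0.36, SE). Of 25 translation factors, some of which are on the previous list too, 3 were higher and 0 lower, with a median of -0.03. Of 17 ribosome biogenesis genes, 1 was higher and 2 lower, and of 7 mTORC1 pathway genes none passed. All 5 immediate early genes tested were higher in microglia-like cells, with a median log2 difference of 3.09. The part of dissociation in the members' difference was not tested. The summed rod markers in microglia-like cells ranged from 0.469 to 130 per 10000, so some libraries hold RNA of rods there. Summed microglial markers in rod-bipolar-like cells were at 0 to 1.28 per 10000, against 292 to 427 in microglia-like cells.

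Müller-like cells, the radial glia of the retina, differed from rod-bipolar-like cells in single members and not in the family's level. Of 65 members tested, 8 were higher and 7 lower, where 11.5% of all genes were higher and 27.4% lower. The members' share called higher is thus of the same order as that of all genes, and their share called lower is below it. The higher members were Rps27l, Rps23, Rplp0, Rpl38, Rps10, Rplp1, Rpl7 and Rpl22. The lower were Rpl5, Rpl19, Rps7, Rps3, Rpl15, Rps24 and Rpl35a. Rps23, Rps10, Rpl15 and Rpl35a among them were named after their values were seen. The median over the members was -0.05, against -0.22 for all genes. All 5 immediate early genes tested were higher in Müller-like cells too, with a median of 5.07.

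Rps27l, a copy of Rps27 known as a p53 target, was the member most raised in Müller-like cells. Its level there had a lowest value of 0.855, in P14 OIR whole-retina library 3, and a highest of 7.02, in P17 NORM whole retina, with the others between 1.04 and 3.45. In rod-bipolar-like cells of the same 12 libraries it ranged from 0.159 to 1.36. The ranges overlap, but the Müller-like value was above the rod-bipolar-like value in 12 of 12 libraries, and the log2 difference was 1.51 ± 0.19 (SE, adjusted p = 1.7e-06, limma). Over classes, mean Rps27l was 5.56 per 10000 in pericyte-like, 4.51 in endothelial-like, 2.73 in microglia-like, 2.57 in Müller-like and 0.35 in amacrine-like cells. Its parent gene Rps27 had a mean over classes of 0.153, but all of its windows were shared with copies, so the 2 genes cannot be ranked.

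Rpl5 was lower in Müller-like cells, at 0 to 0.465 per 10000 against 0.319 to 1.27 in rod-bipolar-like cells, and below it in 12 of 12 libraries. Its log2 difference was -1.22 ± 0.2 (SE, adjusted p = 6.3e-05, limma). Rpl38, which has been tied to selective translation in development, was higher by 0.74 ± 0.19 (adjusted p = 0.0045). Rplp0 was higher by 0.77 ± 0.19 (adjusted p = 0.0032) and Rplp1 by 0.59 ± 0.17 (adjusted p = 0.011), whereas Rplp2 had a difference of -0.36 ± 0.19 (adjusted p = 0.14).

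In amacrine-like, cone-like and ganglion-like cells the median of the members lay below the rod-bipolar-like level, and in rod-like cells it lay close to it. The median of all genes tested was also below that level in cone-like (-0.26) and ganglion-like cells (-0.41), and was 0.02 in amacrine-like cells. In amacrine-like cells 9 of 65 members were lower and 0 higher (9.36% of genes lower and 11.2% higher, median of members -0.31), led by Rpl35a (-1.01 ± 0.25) and Rps14 (-0.93 ± 0.21). In cone-like cells 11 of 65 were lower and 0 higher (12.4% lower and 5.96% higher, median -0.45), led by Rpl35a (-1.35 ± 0.33) and Rps19 (-1.31 ± 0.36). In ganglion-like cells 9 of 55 were lower and 0 higher (7.2% lower and 3.29% higher, median -0.98), led by Rpl37a (-2.47 ± 0.59), Rps15a (-2.37 ± 0.59) and Rpl35a (-2.28 ± 0.58). In rod-like cells Rpl15 (-0.93 ± 0.29) and Rpl35a (-0.87 ± 0.25) were lower, 2 of 63 against 10.8% of genes, 34 of the 63 were positive, and the median was 0.02 against -0.11 for all genes. In amacrine-like and cone-like cells the members' share called is of the same order as that of all genes, and leaving out 1 library took the cone-like count to 5 to 9. The ganglion-like count was 4 without the P14 NORM or the second P14 OIR rod-depleted library and 5 without the P17 OIR rod-depleted or the second P17 OIR whole-retina library. The rod-like count was 0 without P14 NORM whole retina or either P17 OIR whole-retina library, and 1 without any of the other 4 whole-retina libraries. The cone-like count was 5 to 7 without any of the 5 rod-depleted libraries, the first P14 OIR whole-retina library or either P17 OIR whole-retina library. Rpl35a and Rpl37a were named after their values were seen. Rpl35a, whose tract is among those printed above, was thus called lower in 4 of these classes and also in Müller-like cells (-0.49 ± 0.19). These contrasts share the rod-bipolar-like libraries, in which its mean was 4.59 per 10000.

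In cone-bipolar-like cells none of 66 members passed in limma, with 7 at an unadjusted p below 0.05, against 4.06% of genes called higher and 3.48% lower, or 7.54% together. The median of the members was 0.18 there, against 0.03 for all genes. In horizontal-like cells none of 48 passed, with 5 at an unadjusted p below 0.05 (1.42% of genes lower), although the median was -0.92, against -0.28 for all genes. That class was paired in 6 libraries of 20 to 38 cells each.

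Rps15a and Rpl38 were among the members with the widest range over classes, and Rps15a followed the mean of the members (r = 0.98) more closely than Rpl38 (0.86). Rps15a, of the small subunit, was at 0 to 2.08 per 10000 in ganglion-like cells of 8 libraries, and at 1.92 to 7.53 in rod-bipolar-like cells. Its class mean was 19.5 in microglia-like and 0.929 in ganglion-like cells. Rpl38 had class means of 9.34 in endothelial-like, 4.32 in microglia-like and 0.412 in cone-like cells. Rpsa, which doubles as a laminin receptor, had a mean of 7.19 in microglia-like and 0.667 in rod-like cells. Among X-linked members, Rpl39 had a mean over classes of 7.53 and Rps4x one of 3.39. Rpl36al, the autosomal copy of Rpl36a, was at 2.12, and Rpl22 at 5.80, while its copy Rpl22l1, which is no member, ranged from 1.26 to 3.06 over whole libraries.

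Libraries differed from one another as much as classes of neuron did. Over all cells the members took 3.38% of UMIs in the P14 NORM rod-depleted library and 1.75% in P14 NORM whole retina. The P14 OIR rod-depleted libraries stood at 3.08% and 3.23%, and the P14 OIR whole-retina libraries at 2.14%, 1.2% and 1.16%. At P17 the NORM libraries had 2.41% (rod-depleted) and 2.66% (whole), and the OIR libraries 2.39% (rod-depleted), 1.61% and 2.0% (whole). At P14 every rod-depleted library thus lay above every whole-retina library. In rod-bipolar-like cells, a class of both fractions, the rod-depleted libraries held 2.74% ± 0.555 (n = 5) and the whole-retina libraries 1.71% ± 0.575 (n = 7). Different clusters held that class in the 2 fractions: cluster 0 held 82.6% to 95.4% of its cells in the rod-depleted libraries, and cluster 5 held 58.9% to 87.2% in 5 of the 7 whole-retina libraries. Within cluster 0 the share was 2.05% to 3.6% in the rod-depleted and 1.05% to 2.55% in the whole-retina libraries.

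Members were unequal in this respect. Of 57 members with a mean of at least 0.5 per 10000 over libraries, 44 had their lowest value in P14 OIR whole-retina library 2 or 3. The names of these libraries in the labels carry the same date, and they were the only ones with at least 20 lens-like cells (425 and 321, with a member share of 1.28% and 1.12%). The part of either in these values was not tested. Their highest value fell in a P14 rod-depleted library for 43 and in the P17 NORM whole-retina library for 13. The median ratio of highest to lowest library was 5.0. Rpl4 varied least, from 5.87 to 8.22, and Rpl38 most, from 0.056 to 2.83, a ratio of 50.4. Rpl35 ranged from 0.226 to 4.0, with the highest value in the P17 NORM whole-retina library, as for Rps16 and Rpl30. Rpl30 was at 2.74 there and at 0.213 in P14 NORM whole retina.

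Differences between OIR and NORM were small against this spread. In a limma fit with oxygen, day and fraction as terms, 1 member in 1 of 10 classes passed the threshold, Rps2 in pericyte-like cells, a class in which 0.195% of all genes passed. The share of all genes that passed was 0.216% in rod-bipolar-like, 0.19% in Müller-like, 0.0581% in cone-like, 0.0392% in cone-bipolar-like, 0.0149% in rod-like and 0.0% in the other 4 classes. Without P14 NORM whole retina the count was 10, with 9 lower members in rod-like cells beside Rps2, without the P17 NORM rod-depleted library 0 and without the P17 OIR rod-depleted library 2. The median log2 difference (OIR minus NORM) was -0.6 in rod-like cells, -0.49 in ganglion-like, -0.4 in horizontal-like, -0.32 in rod-bipolar-like, -0.29 in amacrine-like, -0.28 in cone-like, -0.22 in cone-bipolar-like, -0.18 in microglia-like, 0.04 in Müller-like and 0.48 in pericyte-like cells. Across all genes tested, the medians lay between -0.041 and 0.184.

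The count of members on each side was uneven in several classes, but no single one passed there. The share of all genes at an unadjusted p below 0.05 is not given, so such counts, here and in the other paragraphs, lack a background. In rod-bipolar-like cells 59 of 68 members had a negative difference and 14 an unadjusted p below 0.05, all downward. In amacrine-like cells 60 of 68 were negative, with 9 at an unadjusted p below 0.05, and in rod-like cells 64 of 68, with 13. In microglia-like cells 42 of 69 were negative and 0 had an unadjusted p below 0.05. In Müller-like cells 39 of 67 were positive, with 7 at an unadjusted p below 0.05 in both directions together. The difference between rod-bipolar-like and Müller-like cells in the oxygen effect was itself tested. Its median over 65 members was -0.41, against -0.0 for all genes. Of these members 0 passed and 13 had an unadjusted p below 0.05, 12 of them downward. In simulated counts of 6635 genes shaped on rod-bipolar-like cells, 100 genes were changed 2-fold and 100 were changed 4-fold. Of these, 29% and 98% were recovered. The changed genes were drawn only from those with a mean of at least 2 per 10000, whereas the fits took genes from 0.2 per 10000. The rates therefore do not cover lower genes, and they are not given by gene level or for the members. Whether simulated libraries varied as much as the real ones was not tested, so the rates may overstate what the fit detects.

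Library names in the labels give the same date for 1 NORM and 1 OIR library of each fraction at P14. In the rod-depleted pair the median of the members was -0.78 in amacrine-like, -0.55 in ganglion-like, -0.38 in cone-like, -0.24 in horizontal-like, -0.21 in rod-bipolar-like, -0.19 in cone-bipolar-like, -0.07 in microglia-like, 0.1 in Müller-like and 0.61 in pericyte-like cells. In the whole-retina pair it was 0.8 in Müller-like, 0.48 in cone-like, 0.43 in cone-bipolar-like, 0.38 in amacrine-like, 0.24 in rod-like and 0.13 in rod-bipolar-like cells. The sign in the neuronal classes was therefore opposite in the 2 pairs, and the lower level in OIR did not hold within the whole-retina pair, whose NORM library is the one that stood apart for Rpl3. At P17 the OIR rod-depleted library has another date than the NORM libraries and the names of the OIR whole-retina libraries give none, so no pair of 1 date could be formed there and the part of the date was not tested.

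**Figure D4:**
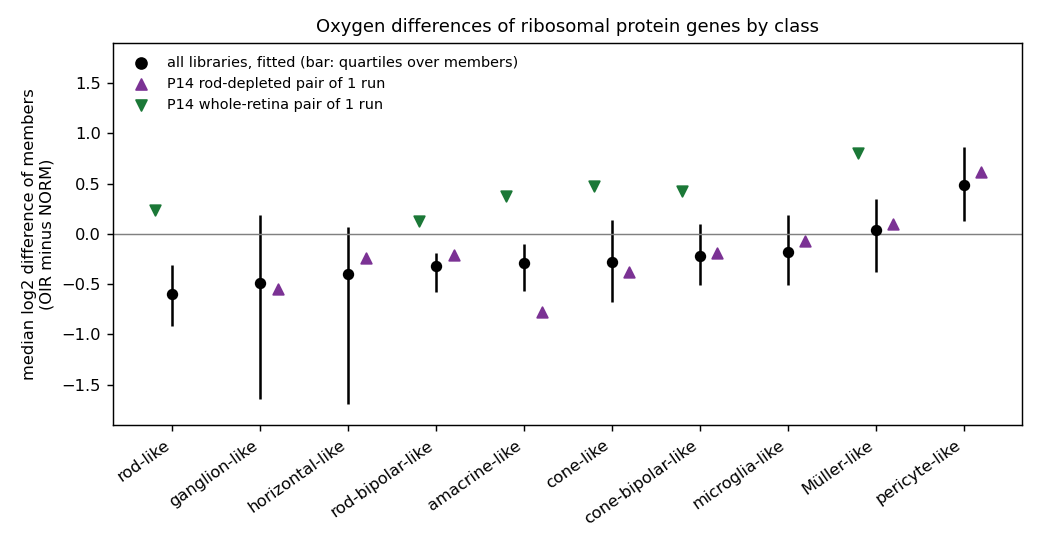
Median log2 difference of the ribosomal protein genes (OIR minus NORM, vertical axis) in 10 classes (horizontal axis), fitted over all libraries (dots, bars for the quartiles over members) and within the P14 pairs of libraries that share a date (triangles). The fitted medians run from -0.6 in rod-like to 0.48 in pericyte-like cells, and the whole-retina pair lies above 0 in all 6 classes it covers.

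Pericyte-like cells, which line capillaries, had the reverse direction, and Rps2, which lines the mRNA entry channel of the small subunit, was the member that passed. Rps2 was at 5.56 per 10000 in P14 NORM and at 14.8 and 21.3 in P14 OIR, and at 0 in P17 NORM and 6.43 in P17 OIR, all rod-depleted. These values rest on 6, 27, 30, 0 and 22 UMIs, and before thinning the P17 NORM cells held 8 Rps2 UMIs of 64447, or 1.24 per 10000. The OIR libraries lay above the NORM libraries. The fitted log2 difference was 3.1 ± 0.57 (SE, adjusted p = 0.0054, limma), where 0.152% of genes were called higher, and 1.93 (adjusted p = 0.0013) without thinning. It did not pass without the P17 NORM library (1.64, adjusted p = 0.12) or without the P17 OIR library (1.64, adjusted p = 0.4). Over all its cells, that P17 NORM library had the lowest Rps2 of the 12, 0.654 against 1.14 to 4.03.

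Other members in pericyte-like cells pointed the same way without passing. Rps26 was at 11.1 in P14 NORM, 30.6 and 35.5 in P14 OIR, 5.44 in P17 NORM and 11.7 in P17 OIR, a difference of 1.35 ± 0.38 (SE, adjusted p = 0.15, limma). Rps20 was at 7.41, 13.1, 20.6, 1.36 and 6.14 in the same order, a difference of 1.51 ± 0.46 (adjusted p = 0.23). In all, 51 of 65 members were positive and 15 had an unadjusted p below 0.05. For 17 of 65 every OIR library lay above both NORM libraries, against 14.3% of genes. The member share was 5.42% and 3.43% in NORM (P14, P17) against 8.19% and 8.73% (P14) and 4.6% (P17) in OIR. Summed markers of rods went the opposite way, at 4.63 to 8.16 per 10000 in NORM and 0.546 to 0.877 in OIR pericyte-like cells. The mitochondrially encoded share did too, at 2.6% to 3.35% in NORM and 1.19% to 2.19% in OIR. Their part in the result was not tested.

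At P17 the levels of most members lay below those of P14 in the vessel-wall and microglia-like classes, and 1 member passed the test. No date in the library names is shared by a P14 and a P17 library, so day and library date cannot be told apart in any class. In pericyte-like cells 55 of 65 members had a negative difference (P17 minus P14), 22 with an unadjusted p below 0.05, and the median was -0.64 against 0.086 for all genes. Rps2 passed, at -2.9 ± 0.57 (SE, adjusted p = 0.02, limma), where 0.0217% of genes were called lower and 0.0433% in either direction. It did not pass without either NORM library (-1.43 each, adjusted p = 1.0, limma) or with another thinning seed, an alternative chosen after seeing the data (-1.42, adjusted p = 0.71). For 22 of 65 members both P17 libraries lay below all P14 libraries, against 8.21% of genes, and 0 lay above, against 8.53%. These include Rplp0, at 13.9 to 22.4 at P14 and 10.2 to 12.6 at P17, and Rpl41, at 24.1 to 43.2 and 10.9 to 20.2.

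In microglia-like cells the member share was 9.23%, 7.88% and 8.76% at P14 and 7.16%, 5.83%, 6.41% and 5.35% at P17, without overlap. Summed rod markers moved with the day in the same cells, from 0.469 to 4.96 per 10000 at P14 and from 8.49 to 130 at P17, also without overlap, and their part in the result was not tested. Of 69 members 50 were negative, with a median of -0.3 against 0.154 for all genes, 0 passed in limma and 5 had an unadjusted p below 0.05. For 14 of 69 every P17 library lay below every P14 library, against 3.01% of genes, and 0 lay above, against 2.01%. Rplp2 is an example, at 25.5, 28.2 and 29.1 at P14 and at 20.3, 13.5, 12.7 and 17.4 at P17. Rps26 was at 24.8, 21.4 and 27.7 at P14 and at 15.9, 11.9, 11.1 and 14.5 at P17. Rpl39 was at 19.9, 31.6 and 28.6 and then at 8.7, 8.81, 11.1 and 17.4. The class held 2 clusters, and within cluster 26 the share was 9.44%, 8.09% and 9.14% at P14 and 6.4%, 5.31%, 6.04% and 5.02% at P17. In cluster 27 it was 8.84%, 7.61% and 8.21% at P14 and 7.98% (NORM) and 6.28% (OIR) at P17, in 17 to 57 cells a library, and the days overlapped. The whole-retina libraries with microglia-like cells are both of P17, and the rod-depleted libraries alone gave 7.16% and 5.83% at P17.

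Endothelial-like cells, with 4 rod-depleted libraries, were not fitted, since these terms leave fewer than the 2 residual degrees of freedom required of each class. Their member share was 8.6% (NORM) and 9.0% (OIR) at P14 and 5.8% (NORM) and 4.71% (OIR) at P17. For 33 of 62 members both P17 libraries lay below both P14 libraries, where 16.3% of genes did, and for 5 they lay above, where 20.7% did. Summed rod markers were at 0.966 and 0.0 per 10000 at P14 and at 1.79 and 1.85 at P17, and their part was not tested. Rpl39, at the exit tunnel of the large subunit, was at 25.6 and 27.5 at P14 and at 8.93 and 4.94 at P17. Rps26 was at 27.1 and 46.4 and then at 9.52 and 12.3, and Rplp1 at 36.7 and 39.1 and then at 19.0 and 12.3. In the other classes the medians for day were between -0.14 in horizontal-like and 0.47 in ganglion-like cells, and no member passed in limma, with 0 to 12 per class at an unadjusted p below 0.05. Of all genes, 0.245% passed in Müller-like, 0.104% in cone-bipolar-like, 0.0726% in cone-like, 0.0447% in rod-like, 0.0361% in ganglion-like, 0.0123% in amacrine-like and 0.0% in rod-bipolar-like, horizontal-like and microglia-like cells.

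At P17, 8 members were lower in OIR than in NORM rod-like cells and 0 were higher, of 68 tested, with 27 at an unadjusted p below 0.05 downward, where 1.09% of genes were called lower and 5.62% higher. Among them were Rpl13a, Rpl19, Rpl30 and the stalk base Rplp0 of the large subunit and Rps7, Rps9 and Rps18 of the small subunit, and their log2 differences ran from -3.14 ± 0.83 for Rps7 to -1.13 ± 0.29 for Rpl13a. Rps18 was at 7.46 per 10000 in P17 NORM whole retina, 6.86 in P17 NORM rod-depleted cells and 1.83 and 2.05 in the P17 OIR whole-retina libraries. At P14 it was at 3.44 in NORM and 5.38, 2.54 and 3.46 in OIR whole retina. Its P17 difference was -1.84 ± 0.4 (SE, adjusted p = 0.025, limma). Rplp0 was at 6.53 and 3.92 in the P17 NORM libraries (whole, then rod-depleted) and at 2.05 and 2.44 in OIR, without overlap at that day.

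**Figure D5:**
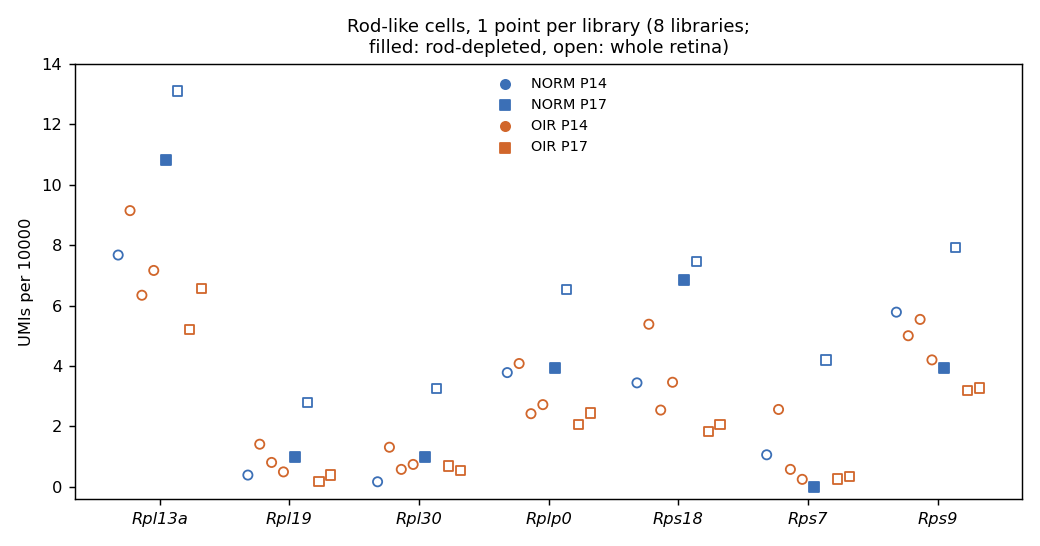
UMIs per 10000 (vertical axis) of 7 ribosomal protein genes (horizontal axis) in rod-like cells, 1 point per library by oxygen group and day. The P17 NORM whole-retina library holds the highest value of each gene, such as 13.1 for Rpl13a, and the P17 OIR libraries lie at 5.21 and 6.55 for that gene.

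This contrast rests on few NORM cells. The fraction term takes up the only rod-depleted library with rod-like cells, so the P17 difference compares 143 cells of the shallowest library with 2 OIR libraries. For Rps7 the rod-depleted NORM cells had 0 of 10200 UMIs, which allows up to 2.94 per 10000. Without either P17 OIR library no member passed, and without P14 OIR whole-retina library 1 or 3 the count was 14 or 21. Different clusters held the class in the 2 groups: 95.4% and 95.6% of P17 OIR rod-like cells were in cluster 1, with Guca1b and Nrl among its leading genes, and all P17 NORM cells (143 and 34) in cluster 2. Within cluster 2 the member share was 2.82% and 2.87% in P17 NORM (143 and 34 cells) and 2.5% and 2.02% in P17 OIR (64 and 30 cells), whereas in cluster 1 it was 1.34% and 1.43% in P17 OIR. Of the mitochondrially encoded genes, 5 of 10 were lower in the same contrast, among them Mt-co1 (-3.25 ± 0.41).

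The oxygen difference itself differed between the days for 1 member, Rpl30 in rod-like cells. Rpl30 of the large subunit was at 0.167 per 10000 in P14 NORM whole retina (3 UMIs) and at 1.31, 0.577 and 0.741 in P14 OIR. It was at 3.26 (14 UMIs) and 0.98 (1 UMI) in P17 NORM and at 0.69 and 0.538 in P17 OIR. The interaction was -3.59 ± 0.69 on the log2 scale (SE, adjusted p = 0.036, limma), where 0.328% of genes were called lower and 1.04% in either direction. In the other classes fitted no member passed, and 0.122% of genes did in Müller-like, 0.102% in cone-like, 0.0245% in amacrine-like and 0.0% in the remaining classes. It did not pass without the first P14 OIR whole-retina library (-3.32, adjusted p = 0.084) or either P17 OIR library (-3.72 and -3.45, adjusted p = 0.24 and 0.22), and it could not be fitted without either whole-retina NORM library. Of its windows, 80.9% were shared with copies, and the P14 NORM library is the one that stood apart for Rpl3.

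In Müller-like cells at P17, Rps21, of the small subunit, was higher in OIR (1.98 ± 0.52, SE, adjusted p = 0.039, limma), where 1.35% of genes were called higher and 0.272% lower. Rps21 was at 0.877 (whole) and 4.63 (rod-depleted) in NORM and at 5.17, 10.3 and 8.29 in OIR. It did not pass without the P17 NORM whole-retina library, which held 38 Müller-like cells (1.35, adjusted p = 1.0, limma), or without either P17 OIR whole-retina library (1.57 and 1.72, adjusted p = 0.25 and 0.18). In that NORM library 97.4% of Müller-like cells were in cluster 7, against 13.6% to 50.2% in the P17 OIR libraries.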

How the data were processed

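Drop-seq libraries were aligned with STAR 2.4.0 to mm10, per the submitters' processing notes. The deposited table holds natural log values of UMIs per 10000 plus 1 for each cell, per its values, and 7 sets of columns (5799 of 31271 cells) of no listed sample were not used. The P14 NORM whole-retina columns carry the number 8, and they were assigned by the group that their name gives. UMI counts were recovered from the values: every nonzero value came within 0.05 UMI of a whole number, 36182149 UMIs in all. Cells were clustered without ribosomal protein genes (Scanpy 1.11.5, Leiden) into 31 clusters, of which 4 stayed unnamed. Cells thinned to 300 UMIs were averaged per library and class of at least 20 cells. Thinning left out 2.5% of P14 NORM, 4.57% of P17 NORM, 2.7% of P14 OIR and 0.986% of P17 OIR cells. By library the loss was uneven. In P17 NORM whole retina 83.5% of cells were kept, in the P17 OIR whole-retina libraries 100.0% and in the rest 92.1% to 99.3%.

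Log2(level + 0.2) was fitted with limma 3.58.1, weighting no cell as a replicate, for genes with a mean of at least 0.2 per 10000 and at least 3 libraries above 0. A fold change on this scale understates that of low genes. P-values were Benjamini-Hochberg adjusted over all genes of a fit. The procedure was tested on simulated data. Intervals and floors (3 counts) cover counting error only. RNA free in the droplets adds UMIs to every class. Members and 7 gene lists were chosen with earlier results of these data known. Named members were those called for oxygen, day or interaction, the 3 with the largest oxygen difference per class, the 5 highest and 3 lowest, the 6 widest and 3 narrowest over classes, and members of known role. Some genes under this rule are not reported here. Alternatives were other thinning, filters, pseudocounts, clusterings, doublet removal, a replicate block and leaving out each library.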

Additional observations from a re-analysis of the deposited data

Results flagged for a closer look

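In rod-like cells of the 5 OIR libraries, the first P14 whole-retina library stood apart from the others in 3 measures. Its member share was 2.1% against 1.25% to 1.45% in the other 4. Its Rpl30 level was 1.31 per 10000 against 0.538 to 0.741, and its Rps7 level 2.56 against 0.247 to 0.577. Of 26 groups of values examined, these 3 had a library apart. The groups of single genes were of members already called in these data. The 3 measures share 1 library and 1 class, and the member share includes both genes. They therefore cannot be set against the rate of about 1 in 20 groups that chance gives. The oxygen difference of Rpl30 in rod-like cells differed between P17 and P14 by -3.59 on the log2 scale, by the interaction term of the limma fit.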

How the results depend on the processing

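Over 41 values that answer a comparison, 483 values under other settings were computed, of which 68 moved, and 396 with 1 library left out, of which 51 moved. A median moved if it shifted by at least the SD among OIR libraries of the members' mean log2 level. For classes the SD was that of the difference within libraries. A count moved if the larger exceeded the smaller by more than 50%, or if only 1 of them was 0. Of 282 counts 97 moved, and of 597 medians 22. None of the 13 results of members called for oxygen, for day, for their interaction or for oxygen within a day changed sign. Members called between classes were not checked for sign. Some medians changed sign, as given below. The cause of each move was not tested. The microglia-like count of 44 ranged from 37 to 45 with a library left out, and its median was 1.09 with a pseudocount of 1. Counts below are of members called, in the order amacrine-like (9), cone-like (11), ganglion-like (9), cone-bipolar-like (0), horizontal-like (0), Müller-like (15) and rod-like (2) for classes against rod-bipolar-like cells. Without thinning they were 25, 19, 27, 9, 11, 24 and 5, with medians of -0.6 in ganglion-like and -0.51 in horizontal-like cells. With a pseudocount of 1 the counts that moved were 23, 23, 24, 4 and 3 for the first 5 and 5 for rod-like, with a horizontal-like median of -0.56. With no filter they were 15 (amacrine-like), 20 (ganglion-like), 1 (cone-bipolar-like) and 8 (horizontal-like), and with a mean of at least 1 they were 15, 5 and 4 for the first 3 of these. A coarser clustering (0.6) gave 14 (amacrine-like), 2 (cone-bipolar-like) and 1 (rod-like), clusters made with ribosomal protein genes 17 (amacrine-like), at least 50 cells 3 (cone-like), thinning to 500 UMIs 5 (cone-bipolar-like) and another seed, chosen after seeing the data, 7 (cone-like) and 2 (cone-bipolar-like).

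For P17 rod-like cells (8) the count was 5 with ribosomal genes in the clustering, 1 with no filter, 18 without thinning, 30 at resolution 0.6 and 28 at 500 UMIs. For the interaction (1) it was 0, 11, 5, 8 and 9 in the same order, 3 with a mean of at least 1 and 2 with a pseudocount of 1. For oxygen (1) it was 0 with at least 50 cells or a mean of at least 1, and 2 with no filter or 500 UMIs. For day (1) it was 0 with another seed, at least 50 cells, a mean of at least 1 or levels per 10000 other UMIs, 6 without thinning and 4 at 500 UMIs. Within the P14 pairs of 1 date, the oxygen medians that moved were -0.78 (amacrine-like, rod-depleted) and, in whole retina, 0.8 (Müller-like), 0.38 (amacrine-like), 0.43 (cone-bipolar-like), 0.48 (cone-like) and 0.24 (rod-like).

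With the replicate number as a block the counts were 8 (Müller-like), 0 (amacrine-like), 2 (cone-like), 4 (ganglion-like), 0 (rod-like), 18 (P17 rod-like) and 12 (interaction), and the horizontal-like oxygen median was -0.72. Replicate numbers pair nothing by the labels: the correlations of replicate 1 minus 2 between groups were -0.06, -0.02 and 0.05 over 6958 genes in rod-bipolar-like cells.

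With 1 library left out, counts ranged from 0 to 1 (cone-bipolar-like), 5 to 9 (cone-like), 4 to 8 (ganglion-like), 0 to 2 (rod-like), 0 to 3 (day), 0 to 21 (P17 rod-like), 0 to 14 (interaction) and 0 to 10 (oxygen). The horizontal-like class median ranged from -0.86 to -0.62. Oxygen medians ranged from -0.98 to -0.38 (ganglion-like) and -1.01 to -0.18 (horizontal-like), and day medians from 0.14 to 0.96 (ganglion-like) and -0.29 to 0.32 (horizontal-like).

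Few changes were recovered at the size of the small classes. In simulated pericyte-like data of 3739 genes, 3% of 100 genes changed 2-fold and 34.7% of 98 changed 4-fold were recovered. The same limits apply to these rates as to those for rod-bipolar-like cells.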

Other observations

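Fau, whose product is a ribosomal protein fused to a ubiquitin-like protein, ranged from 0.169 to 1.61 per 10000 over the 12 libraries. It was lowest in the third P14 OIR whole-retina library and highest in P17 NORM whole retina. Gnb2l1, which encodes the ribosome-bound scaffold Rack1, ranged from 1.92 to 5.9, lowest in the same library and highest in P14 NORM rod-depleted cells.

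The 10 genes outside the family whose class means were most like the members' mean, by Pearson's r of log2 levels over 11 classes that share libraries, were Eef1a1 (0.966), Pfn1 (0.964), Gnb2l1 (0.944), Pabpc1 (0.911), Calr (0.872), Tmsb4x (0.859), B2m (0.853), Shfm1 (0.83), Cd81 (0.814) and Actb (0.8).

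In pericyte-like cells the other lists had these oxygen medians, with 0 genes called in each by limma: ribosome biogenesis 1.39, other oligopyrimidine mRNAs 0.65, mitochondrial ribosomal proteins 0.58 and translation factors 0.53, against 0.184 for all genes.

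Cells of 1200 or more UMIs held a higher member share than cells of 300 to under 600 UMIs of the same library in 8 of 8 libraries for cone-bipolar-like cells (median ratio 1.51) and in 2 of 9 for Müller-like cells (0.801), with every cell thinned alike.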
